A study of Mus musculus with 102 samples.

Results

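The 32 genes described here encode factors that build ribosomes in the nucleolus: abundant nucleolar phosphoproteins, the proteins of the small nucleolar ribonucleoproteins (snoRNPs), RNA polymerase I with its regulators, and assembly factors of both ribosomal subunits. They were chosen by symbol in the authors' normalized table of 18856 genes and matched to the table of raw counts, of 53715 genes, by gene ID. All 32 were found, and each had at least 199 counts in every sample, so all 32 entered the 20461 genes tested.

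Microglia, the resident macrophages of the central nervous system, were sorted from the lumbar spinal cord of mice, and their polyadenylated RNA was sequenced. One genotype was ABC-imKO (KO), an inducible knockout of the cholesterol exporters Abca1 and Abcg1 in microglia, whose driver of recombination is not given in the sources used here, and the other was wild type (WT). In each genotype, mice had cisplatin with intrathecal AIBP (the apolipoprotein A-I binding protein), cisplatin with intrathecal saline, or no treatment (naive). There were 3 numbered samples in each group except WT cisplatin AIBP, which had 2, each sequenced as 3 technical replicates. How many mice went into a numbered sample is not given in the labels, so the p-values below refer to the spread among numbered samples, part of which may be technical. Cisplatin was given on days 1 and 3 and the intrathecal injection on day 7. Naive mice had neither, so in every comparison with naive samples cisplatin and the injection cannot be told apart.

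Ribosome production starts when RNA polymerase I transcribes the ribosomal DNA into a long precursor RNA. SnoRNPs of the box C/D class then methylate the precursor and those of the box H/ACA class convert uridines to pseudouridine, while assembly factors fold, cut and package it with ribosomal proteins into the small and the large subunit. The transcription factor MYC is known for activating many genes of this machinery, and ribosome production is known to increase in macrophages and other cells that grow, divide or become activated.

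Depth was 45.1 to 76.6 M counts per sample (M for mega, median 63.1). Levels are given as CPM (counts per M counts of a sample), with library sizes scaled by edgeR's TMM factors. The samples labelled KO cisplatin AIBP had Cx3cr1, a microglial gene, at 5250 to 7078 CPM, above the 1718 to 2771 CPM of KO cisplatin saline and the 3397 to 4871 CPM of KO naive, against 7297 and 7902 CPM in WT cisplatin AIBP, 5531 to 7103 CPM in WT cisplatin saline and 9349 to 10656 CPM in WT naive. In counts over whole genes, which do not separate a deleted exon, Abca1 stood at 66.1 to 105 CPM in KO naive and 87.3 to 114 CPM in WT naive, and Abcg1 at 41.6 to 66.4 CPM in KO naive and 91.7 to 160 CPM in WT naive. After cisplatin, with AIBP or with saline, the KO and WT samples overlapped in both genes. WT cisplatin saline sample 4 stood apart from samples 5 and 6 of its group in the genes described here and in monocyte markers, as given with the results. The labels of this sample and of the samples labelled KO cisplatin AIBP could not be checked further, so comparisons that use them hold only as far as those labels are right.

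The sequences shown first are the stretches around the transcription start of 3 genes whose level rose after cisplatin, Nop10, Nhp2 and Ncl, and of Nop2 and Pes1, which hold the E-box CACGTG, the DNA word bound by MYC with its partner MAX. Each runs 5′ to 3′ on the gene's strand, from 250 bases before to 50 bases after the start, and any E-box is in capitals. They come from RefSeq annotation on GRCm38.p6, at chr2:112261676-112261975 (+ strand), chr11:51619523-51619822 (+ strand), chr1:86359406-86359705 (- strand), chr6:125131633-125131932 (+ strand) and chr11:3963725-3964024 (+ strand).
Nop10: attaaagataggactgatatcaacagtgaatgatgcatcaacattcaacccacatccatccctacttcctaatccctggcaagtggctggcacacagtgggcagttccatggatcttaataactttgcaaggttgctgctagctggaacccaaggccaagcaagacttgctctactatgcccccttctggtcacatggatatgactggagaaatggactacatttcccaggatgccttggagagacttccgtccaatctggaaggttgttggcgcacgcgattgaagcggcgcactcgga
Nhp2: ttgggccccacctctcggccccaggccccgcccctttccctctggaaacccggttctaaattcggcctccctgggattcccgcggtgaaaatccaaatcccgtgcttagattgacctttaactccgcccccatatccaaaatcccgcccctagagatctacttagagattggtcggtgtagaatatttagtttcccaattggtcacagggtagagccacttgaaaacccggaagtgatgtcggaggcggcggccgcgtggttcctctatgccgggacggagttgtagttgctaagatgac
Ncl: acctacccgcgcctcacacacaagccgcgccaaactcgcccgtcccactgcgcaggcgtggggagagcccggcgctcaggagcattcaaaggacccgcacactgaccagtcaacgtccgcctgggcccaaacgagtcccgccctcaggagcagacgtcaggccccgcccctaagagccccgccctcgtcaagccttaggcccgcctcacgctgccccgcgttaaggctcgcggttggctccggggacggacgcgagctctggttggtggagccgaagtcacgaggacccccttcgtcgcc
Nop2: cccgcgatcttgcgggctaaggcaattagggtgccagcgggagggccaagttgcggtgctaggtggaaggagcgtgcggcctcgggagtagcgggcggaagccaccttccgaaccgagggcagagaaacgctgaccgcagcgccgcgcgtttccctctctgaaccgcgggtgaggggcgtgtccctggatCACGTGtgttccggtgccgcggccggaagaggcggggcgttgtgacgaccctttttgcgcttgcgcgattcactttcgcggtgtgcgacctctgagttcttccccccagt
Pes1: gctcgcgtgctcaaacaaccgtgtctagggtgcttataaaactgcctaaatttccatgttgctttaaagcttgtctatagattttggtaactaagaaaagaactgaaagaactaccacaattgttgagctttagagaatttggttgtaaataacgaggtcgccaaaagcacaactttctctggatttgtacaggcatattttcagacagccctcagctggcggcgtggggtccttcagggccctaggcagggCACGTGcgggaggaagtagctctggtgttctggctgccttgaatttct

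Of the 32 genes, 27 had such a window of 300 bases in the RefSeq table. CACGTG reads the same on both strands and was present in 4 of the 27 (14.8%): Nop2, Pes1, Tsr1 and Wdr43. Among all 27025 genes with a window it was present in 2187 (8.09%), and among the 11879 of them tested here in 1322 (11.1%). The capitals begin at base 191 of the window in Nop2 and at base 253 in Pes1, which is just past the start. None of the 6 genes with a window that passed the test in any comparison below (Ncl, Nhp2, Nop10, Nop58, Mrto4 and Ebna1bp2) held these letters in it, which says nothing of MYC binding elsewhere in these genes.

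Expressed per kb of exon, the 32 genes spanned from 3.96 CPM per kb for Tsr1 to 117 CPM per kb for Npm1 as means of all 17 samples. This scale allows genes to be compared only roughly. The length used joins all annotated exons of a gene, which can exceed that of the transcripts present. For Fbl it was 4209 bases, against 1197 for the longest coding transcript. Nucleophosmin (Npm1), Nhp2 at 106 CPM per kb, Myc at 80.4 and Nop56 at 68.9 were the highest on this scale. The catalytic subunits of RNA polymerase I were near the bottom, with Polr1a at 4.11 CPM per kb and Polr1b at 4.79. The core proteins of one particle were far apart on this scale. In box H/ACA snoRNPs, Nhp2 stood at 106 CPM per kb, Nop10 at 49.8, Dkc1 at 18.6 and Gar1 at 4.09. In box C/D snoRNPs Nop56 stood at 68.9, Nop58 at 8.60 and Fbl at 6.28. Without division by length the means were 121 CPM for Nhp2, 55.2 for Nop10, 76.5 for Dkc1 and 7.01 for Gar1. They were 282 CPM for Nop56, 92.5 for Nop58 and 26.4 for Fbl.

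**Figure D1:**
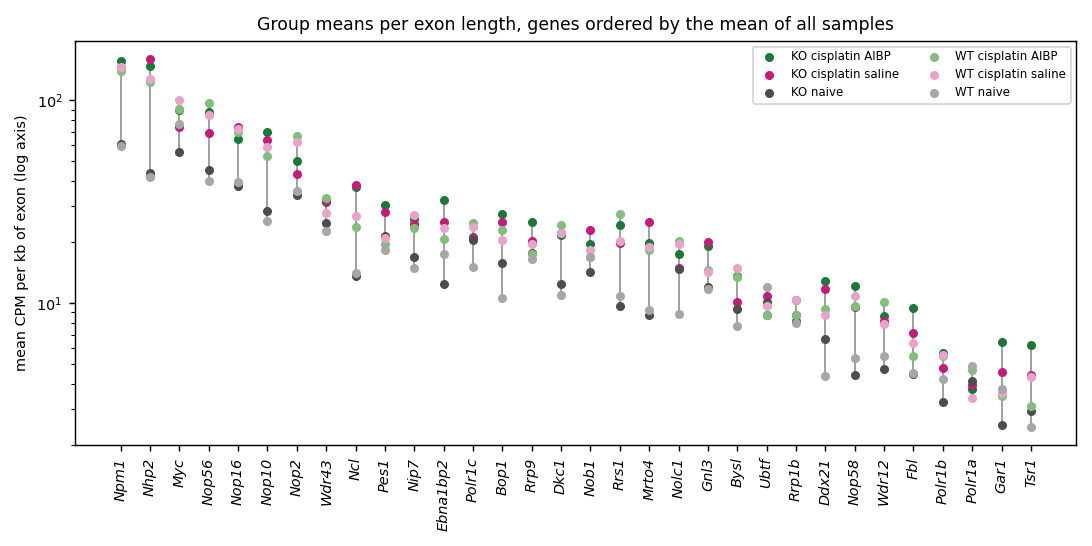
Mean CPM per kb of exon (y, log axis) of each of the 32 genes (x, ordered by the mean of all samples) in the 6 groups (coloured points), with a line over the range of the group means. Npm1 and Nhp2 lead at 117 and 106 CPM per kb over all samples, Polr1a, Gar1 and Tsr1 are lowest, and the naive means lie at the lower end of most lines.

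The annotation of these genes holds one more feature. In GENCODE M21, 7 of the 32 (21.9%) enclose 21 snoRNA genes, against 220 of the 13668 protein-coding genes tested (1.61%). They are Nop56 with 5, Nop58 with 4, Ncl, Wdr43 and Gnl3 with 3 each, Tsr1 with 2 and Dkc1 with 1. The snoRNAs themselves were not measured here. Also, 12 of the 32 genes overlap a gene on the opposite strand (Nhp2 with Rmnd5b, for example), and since the strand setting of the counts is not given in the sources used here, reads of such partners cannot be told apart.

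After cisplatin and saline, most of the genes had higher fitted levels than in naive samples in both genotypes, and a few passed the test. In KO cisplatin saline against KO naive, 5 of the 32 passed the test and all 5 rose (edgeR quasi-likelihood test, Benjamini-Hochberg adjusted p below 0.05 over all genes tested), against 2.42% of all genes tested that rose. They were Ncl, Nop10, Npm1, Nhp2 and Mrto4, between 2.22-fold and 3.63-fold higher. In WT cisplatin saline against WT naive, 3 of the 32 rose, against 1.95% of all genes: Nop10, Npm1 and Nhp2, between 2.33-fold and 3.03-fold higher. None of the 32 fell in either. The log2 fold change was above 0 for 31 of 32 genes in KO, with a median of 0.67 beside -0.04 over all genes tested, and for 29 of 32 in WT, with a median of 0.81 beside -0.01.

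At the level of single samples, 18 of the 32 genes had all 3 KO cisplatin saline samples above all 3 KO naive samples, against 12% of all genes, and none had them all below. In WT, 12 of the 32 genes had all cisplatin saline samples above all naive samples, also against 12% of all genes, and Ubtf had them all below. The WT count was limited by sample 4: among the 3 WT cisplatin saline samples it was the lowest for 29 of the 32 genes, and sample 5 was the highest for 28.

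**Figure D2:**
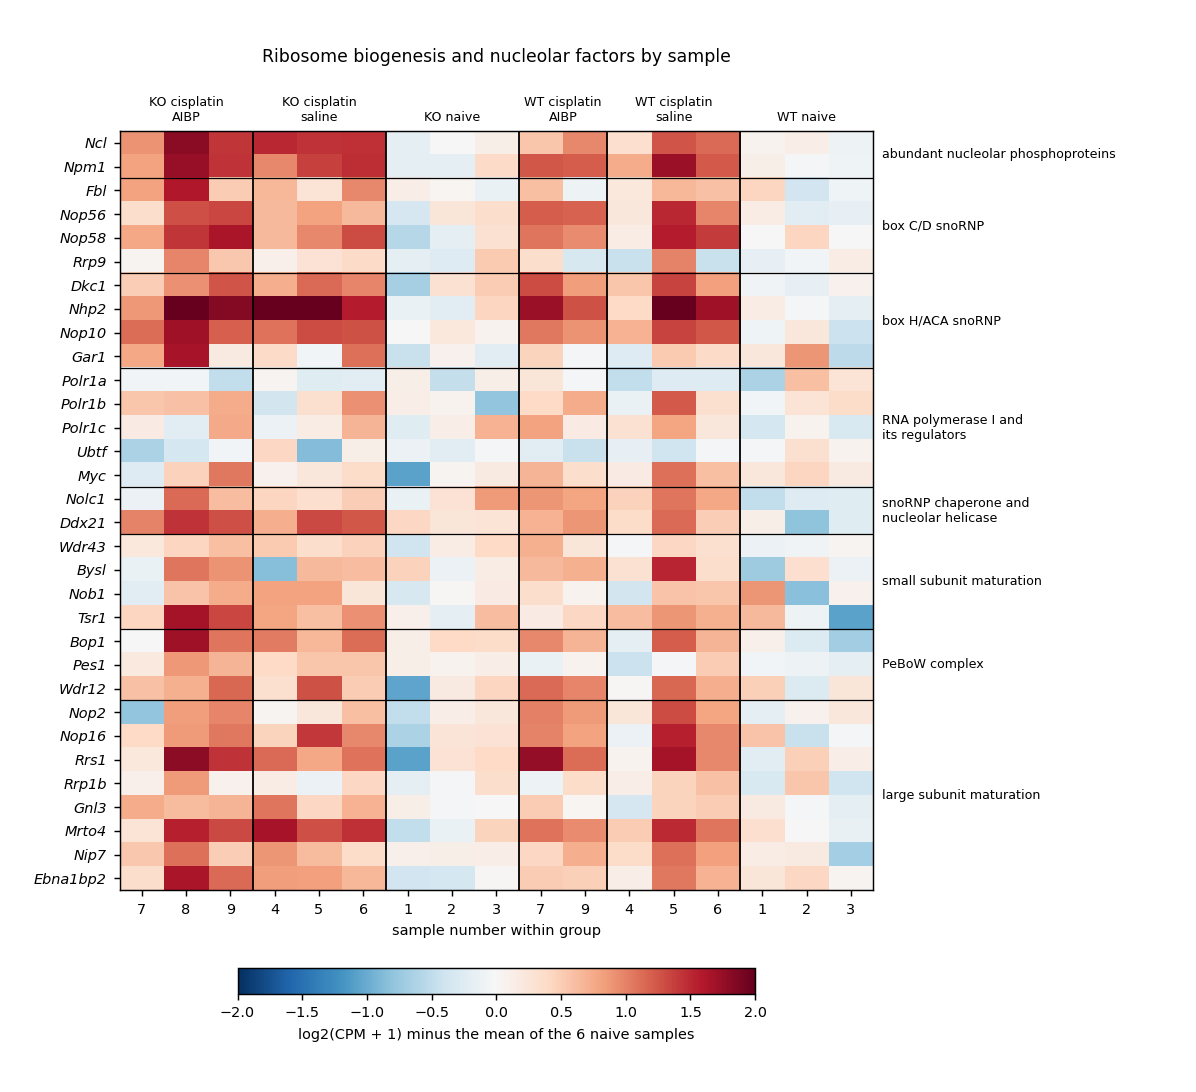
Log2(CPM + 1) of each of the 32 genes (rows, grouped by role) in each of the 17 samples (columns), minus the mean of the 6 naive samples (colour, red for higher and blue for lower). Both KO and WT cisplatin samples are mostly red, WT cisplatin saline sample 4 is paler than samples 5 and 6, and the rows of Polr1a and Ubtf are pale throughout.

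The summed level of the 32 genes shows the same spread between samples. It was 2504, 4354 and 4032 CPM in the samples labelled KO cisplatin AIBP (7, 8 and 9), 3218, 3436 and 3494 CPM in KO cisplatin saline (4, 5 and 6) and 1609, 1998 and 2362 CPM in KO naive (1, 2 and 3). In WT it was 3469 and 3162 CPM in cisplatin AIBP (7 and 9), 2215, 4377 and 3370 CPM in cisplatin saline (4, 5 and 6) and 2065, 2041 and 1885 CPM in naive (1, 2 and 3). Every cisplatin sample of each genotype was therefore above every naive sample of that genotype. The margin was small for WT cisplatin saline sample 4 and for sample 7 of those labelled KO cisplatin AIBP. KO naive sample 3 came above WT cisplatin saline sample 4. In bulk RNA, more cells rich in these transcripts and more transcripts per cell cannot be told apart.

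Markers of other cells moved with these sums in part. The summed level of 7 monocyte markers ranged from 17.5 to 169 CPM in the samples labelled KO cisplatin AIBP, from 104 to 146 in KO cisplatin saline and from 2.44 to 9.77 in KO naive. In WT it ranged from 18.2 to 24.8 CPM in cisplatin AIBP, from 1.7 to 253 in cisplatin saline and from 2.22 to 13.6 in naive. The monocyte sum was lowest in sample 4 and highest in sample 5 of WT cisplatin saline, as was the sum of the 32 genes. Ccr2, a chemokine receptor of inflammatory monocytes, stood there at 0.3, 95.3 and 62.8 CPM in samples 4, 5 and 6. In KO cisplatin saline Ccr2 stood at 0.227, 4.88 and 6.74 CPM, overlapping the 1.89, 1.97 and 0.305 CPM of KO naive. Most of the monocyte sum in KO cisplatin saline came from Chil3, at 116, 106 and 76.9 CPM. All 7 markers had log2 fold changes above 0 in that comparison, and 0 passed edgeR's test. In WT cisplatin AIBP the monocyte sum was at most 24.8 CPM while the 32 genes summed to more than in any naive sample. The part of monocytes in the differences was not tested. Across the 8 microglial markers, which include P2ry12 and Tmem119, the sums were 18655 to 21898 CPM in KO cisplatin saline and 35046 to 45734 in KO naive, and 25208 to 32160 CPM in WT cisplatin saline and 45647 to 52707 in WT naive, and 6 of the 8 fell in KO and 2 of the 8 in WT by edgeR's test. The summed level of 6 markers of border macrophages ranged from 8 to 12.5 CPM in KO cisplatin saline and from 2.31 to 8.61 in KO naive, and from 0.514 to 69.5 CPM in WT cisplatin saline and from 0.107 to 1.78 in WT naive. Neutrophil markers, 6 in all, summed to 1.7 to 6.04 CPM in KO cisplatin saline and 0.0643 to 0.634 in KO naive, and to 0.0381 to 15.1 CPM in WT cisplatin saline and 0 to 0.0318 in WT naive. Markers of oligodendrocytes, 5 in all, summed to 219 to 322 CPM in KO cisplatin saline and 451 to 741 in KO naive, where Mbp, a myelin protein, fell (-1.66 ± 0.40, adjusted p = 0.029, edgeR), and to 247 to 562 CPM in WT cisplatin saline and 570 to 838 in WT naive. The 4 endothelial markers summed to 0.691 to 11.3 CPM in KO cisplatin saline and 16 to 44.3 in KO naive, and to 8.17 to 11.3 CPM in WT cisplatin saline and 22.6 to 35.9 in WT naive. Thus neutrophil sums were higher and oligodendrocyte and endothelial sums lower after cisplatin and saline, without overlap in either genotype. WT sample 4 was close to the naive samples in the first 2 of these sums. Single markers did not all follow the sums. Of the neutrophil markers, S100a9, Ly6g and Retnlg stood at 0 in every sample, 2 of the 6 were tested, and 0 passed in edgeR. Pecam1 made up most of the naive endothelial sums. Log2 fold changes were above 0 for 0 of 4 endothelial markers in KO and 2 of 4 in WT. For oligodendrocyte markers this was 2 of 5 in KO and 1 of 5 in WT. The part of these cells in the differences was not tested.

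**Figure D3:**
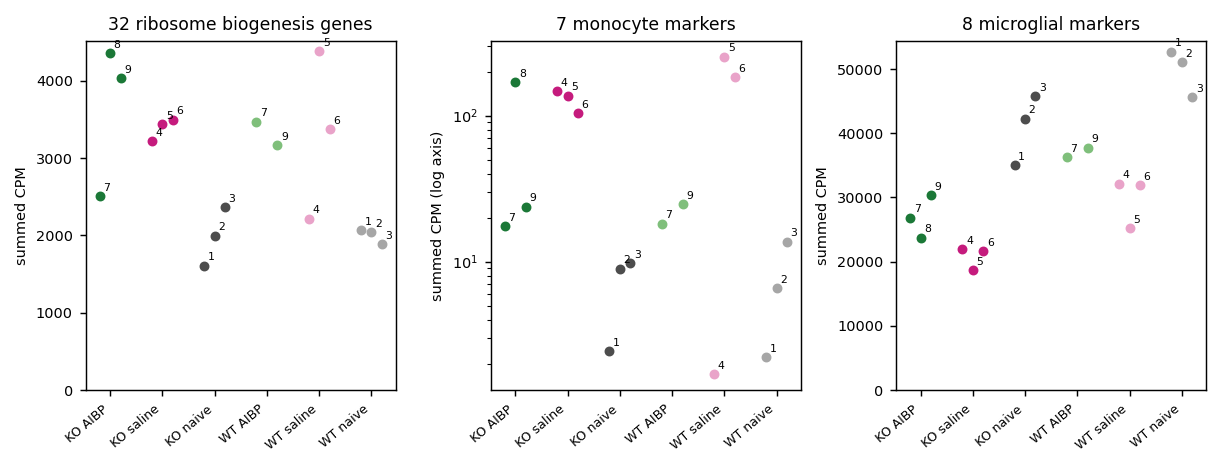
Summed CPM (y) of the 32 ribosome biogenesis genes (left), of 7 monocyte markers (middle, log axis) and of 8 microglial markers (right) in each sample (points, numbered as in the labels) of the 6 groups (x). WT cisplatin saline sample 4 is at 2215 CPM for the 32 genes and at 1.7 CPM for the monocyte markers, while samples 5 and 6 are at 4377 and 3370 CPM for the 32 genes.

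Among the box H/ACA proteins, Nop10 (chromosome 2, 112261926 to 112263269, GRCm38), the smallest core protein of the particle, rose in both genotypes. It stood at 65.6, 98.3 and 68.7 CPM in the samples labelled KO cisplatin AIBP, 63.9, 74.8 and 72.5 in KO after cisplatin with saline and 29.8, 34.4 and 30.9 in KO naive. In WT the level was 62.7 and 55.7 CPM in cisplatin AIBP, 48.6, 76.6 and 71.4 after cisplatin with saline and 27.9, 34.8 and 21.6 in naive. No cisplatin sample of either genotype overlapped the naive samples. The rise after cisplatin and saline was 1.15 ± 0.23 (adjusted p = 0.0102) in KO and 1.22 ± 0.23 (adjusted p = 0.0109) in WT (edgeR).

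Nhp2 (chromosome 11, 51619735 to 51623714), which binds the guide RNA of the same particle, had the largest log2 fold change of the 32 genes in both genotypes. It stood at 89.2, 241 and 175 CPM in the samples labelled KO cisplatin AIBP, 207, 196 and 146 in KO after cisplatin with saline and 44, 41.1 and 65.9 in KO naive, and at 162 and 119 CPM in WT cisplatin AIBP, 64.4, 212 and 158 in WT after cisplatin with saline and 54.1, 47 and 42.5 in WT naive. The groups did not overlap, but WT cisplatin saline sample 4 came close to the naive samples. The rise was 1.86 ± 0.40 (adjusted p = 0.0158) in KO and 1.60 ± 0.40 (adjusted p = 0.0434) in WT (edgeR).

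Dkc1 (dyskerin), the pseudouridine synthase of the particle, was also above every naive sample in the cisplatin saline samples of each genotype, at 77.3, 103 and 92.1 CPM in KO cisplatin saline against 29.1, 57.7 and 66.5 in KO naive, and 68.9, 121 and 83.1 CPM in WT cisplatin saline against 44.1, 41.5 and 49.2 in WT naive. It did not pass the test (0.83 ± 0.30 (adjusted p = 0.149) in KO, 1.02 ± 0.30 (adjusted p = 0.0898) in WT, edgeR). Gar1, another core protein, was the least abundant of the 32 genes in CPM, between 3.17 and 17.9 CPM over all samples. Its groups overlapped, with 0.86 ± 0.54 (adjusted p = 0.419) in KO and -0.07 ± 0.54 (adjusted p = 0.98) in WT (edgeR).

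Among the abundant nucleolar phosphoproteins, Npm1 (chromosome 11, 33152287 to 33163206), a chaperone of ribosome assembly, stood at 279, 534 and 434 CPM in the samples labelled KO cisplatin AIBP, 311, 413 and 443 in KO after cisplatin with saline and 139, 139 and 208 in KO naive. In WT the level was 377 and 369 CPM in cisplatin AIBP, 266, 529 and 373 after cisplatin with saline and 173, 155 and 149 in naive. Again no cisplatin sample overlapped the naive samples of its genotype. The rise after cisplatin and saline was 1.27 ± 0.27 (adjusted p = 0.0152) in KO and 1.29 ± 0.27 (adjusted p = 0.0197) in WT (edgeR). Npm1 has 4 near-identical pseudogenes in the annotation, which together held 1.95% of the counts of gene and pseudogenes. How reads shared with these copies were counted is not given in the sources used here, so its level is uncertain by an amount that was not measured.

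Nucleolin (Ncl, chromosome 1, 86344719 to 86359400), which binds precursor ribosomal RNA and acts in its transcription and processing, had the smallest adjusted p of the 32 genes in KO. Its level was 263, 495 and 381 CPM in the samples labelled KO cisplatin AIBP, 399, 386 and 388 in KO after cisplatin with saline and 122, 140 and 152 in KO naive, and 207 and 275 CPM in WT cisplatin AIBP, 178, 337 and 308 in WT after cisplatin with saline and 147, 154 and 131 in WT naive. The 3 KO cisplatin saline samples were nearly level, at 391 ± 7.31 CPM against 138 ± 15 CPM in KO naive (SD, n = 3 each), and all 3 were above every WT sample. The rise was 1.50 ± 0.24 (adjusted p = 0.00337) in KO. In WT the groups did not overlap, but the difference did not pass the test (0.93 ± 0.24 (adjusted p = 0.0528), edgeR), and the difference between the genotypes in this change did not pass either (0.57 ± 0.34 (adjusted p = 0.75)).

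**Figure D4:**
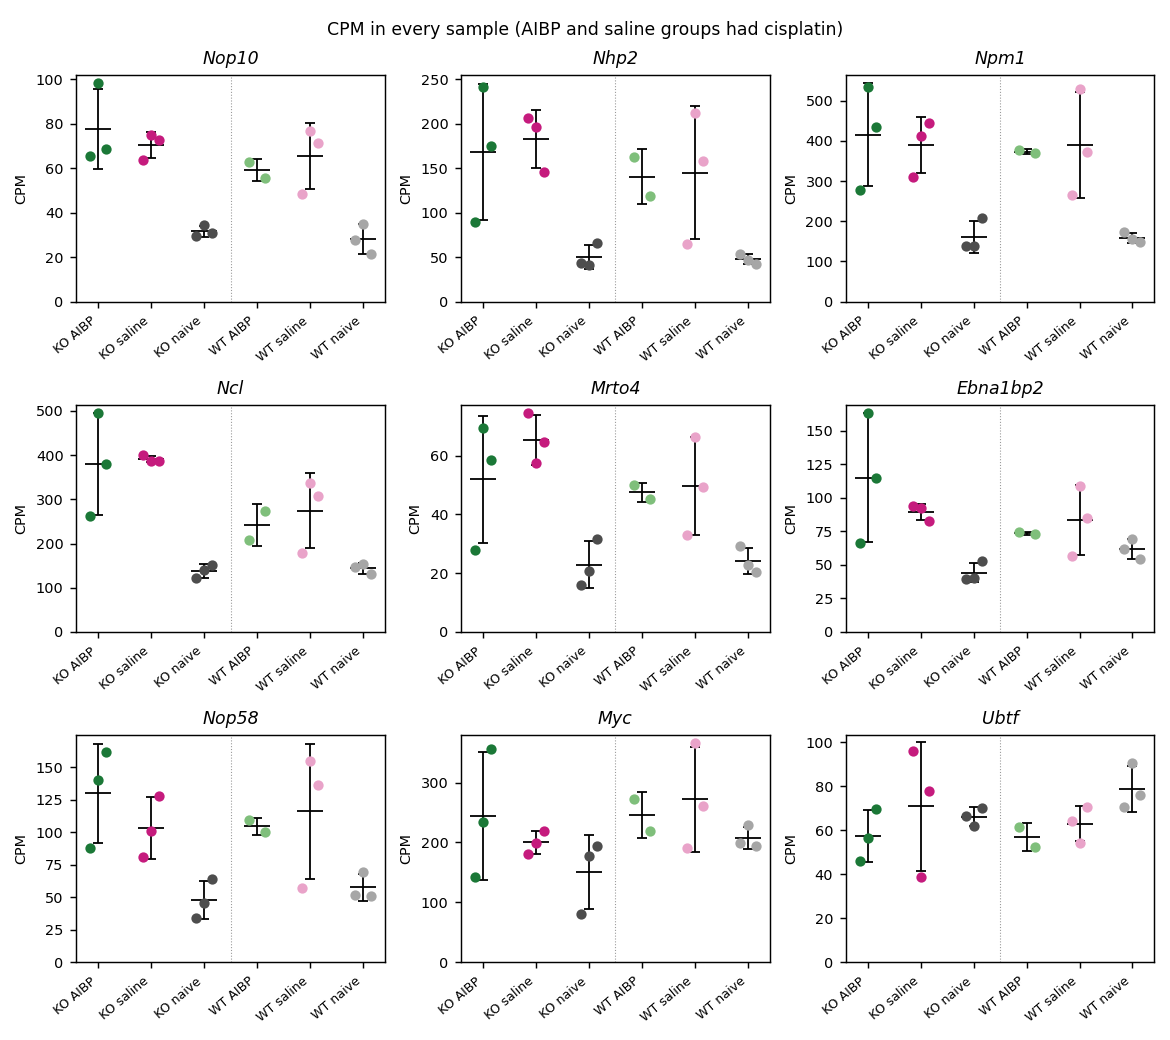
CPM (y) in every sample (points) of the 6 groups (x) for the 7 genes that passed the test in a comparison with naive samples and for Myc and Ubtf, with the mean and SD as bars. Nop10, Nhp2, Npm1 and Ncl are higher in each cisplatin group than in the naive group of the same genotype with no overlap, while the groups of Myc and of Ubtf overlap in KO.

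The box C/D proteins came next. Nop56, a core scaffold, stood at 271, 302 and 271 CPM in KO cisplatin saline against 136, 203 and 220 in KO naive, and at 202, 493 and 340 CPM in WT cisplatin saline against 191, 147 and 153 in WT naive. These groups did not overlap, but the differences did not pass the test (0.59 ± 0.30 (adjusted p = 0.314) in KO, 1.08 ± 0.30 (adjusted p = 0.0743) in WT, edgeR). Nop58, the paired scaffold, had 1.11 ± 0.35 (adjusted p = 0.092) in KO and 1.01 ± 0.34 (adjusted p = 0.149) in WT, and passed in the samples labelled KO cisplatin AIBP, as given below. Fibrillarin (Fbl), the methyltransferase, had 0.67 ± 0.33 (adjusted p = 0.298) in KO and 0.50 ± 0.33 (adjusted p = 0.441) in WT. Rrp9, which belongs to the snoRNP that directs the first cuts of the precursor, was close to its naive level, with 0.20 ± 0.37 (adjusted p = 0.848) in KO and 0.23 ± 0.37 (adjusted p = 0.802) in WT. Nolc1, a chaperone of snoRNPs, had 0.03 ± 0.29 (adjusted p = 0.993) in KO and 1.14 ± 0.30 (adjusted p = 0.053) in WT, and the nucleolar RNA helicase Ddx21 had 0.83 ± 0.27 (adjusted p = 0.109) in KO and 1.00 ± 0.27 (adjusted p = 0.064) in WT (edgeR), so neither passed.

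RNA polymerase I and its regulators showed the smallest median log2 fold change of the 8 roles, 0.10 in KO and 0.39 in WT, and none of the 5 passed the test. Ubtf, which binds ribosomal DNA and recruits the polymerase, stood at 46.2, 56.3 and 69.6 CPM in the samples labelled KO cisplatin AIBP, 96.3, 38.9 and 77.9 in KO after cisplatin with saline and 66.6, 61.8 and 70.2 in KO naive. In WT the level was 61.6 and 52.4 CPM in cisplatin AIBP, 64.5, 54.4 and 70.4 after cisplatin with saline and 70.4, 90.7 and 75.9 in naive. The KO groups overlapped, while all WT cisplatin samples were below the lowest WT naive sample, though WT cisplatin saline sample 6 and WT naive sample 1 were almost equal. The test gave 0.10 ± 0.26 (adjusted p = 0.9) in KO and -0.32 ± 0.27 (adjusted p = 0.55) in WT (edgeR).

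Polr1a, the largest subunit of the polymerase, had -0.07 ± 0.28 (adjusted p = 0.943) in KO and -0.52 ± 0.28 (adjusted p = 0.341) in WT, and Polr1b, the second largest, had 0.54 ± 0.38 (adjusted p = 0.481) in KO and 0.39 ± 0.38 (adjusted p = 0.633) in WT (edgeR). Polr1c, a subunit shared with RNA polymerase III, had 0.02 ± 0.32 (adjusted p = 0.994) in KO and 0.66 ± 0.32 (adjusted p = 0.3) in WT. None of the 5 genes of this group had an unadjusted p below 0.05 in either genotype, and DESeq2 and limma-voom called none of them.

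Myc stood at 143, 234 and 356 CPM in the samples labelled KO cisplatin AIBP, 180, 199 and 220 in KO after cisplatin with saline and 80.5, 177 and 193 in KO naive. In WT the level was 273 and 218 CPM in cisplatin AIBP, 191, 365 and 260 after cisplatin with saline and 199, 229 and 194 in naive. The groups of each genotype overlapped, and KO naive sample 1 was the lowest of all 17 samples. The difference after cisplatin and saline was 0.41 ± 0.34 (adjusted p = 0.568) in KO and 0.39 ± 0.34 (adjusted p = 0.577) in WT, so a change in Myc transcript was not detectable at this spread (edgeR). Of its relatives, named here after their values were seen, Mycn was at or near 0 in every sample, between 0 and 0.0221 CPM. Mycl stood at 39.5, 2.27 and 7.12 CPM in KO cisplatin saline and 20.5, 28.2 and 15.4 CPM in KO naive, while in WT its level was 6.8, 0.0643 and 0.0981 CPM after cisplatin with saline, against 24.8, 12.3 and 19.3 CPM in the naive samples. The WT groups of Mycl did not overlap and the KO groups did, and it did not pass in either (-0.39 ± 1.20, adjusted p = 0.92 in KO and -3.02 ± 1.30, adjusted p = 0.252 in WT, edgeR).

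Among the factors of the large subunit, Mrto4 (chromosome 4, 139347435 to 139352576), known in yeast to hold the place of a stalk protein until late assembly, rose in KO. Its level was 27.8, 69.4 and 58.6 CPM in the samples labelled KO cisplatin AIBP, 74.3, 57.3 and 64.7 in KO after cisplatin with saline and 16.1, 20.8 and 31.7 in KO naive. In WT the level was 49.8 and 45 CPM in cisplatin AIBP, 33, 66.2 and 49.3 after cisplatin with saline and 29.2, 22.8 and 20.5 in naive. The cisplatin saline samples were above the naive samples in both genotypes, with 1.52 ± 0.35 (adjusted p = 0.0221) in KO and 1.04 ± 0.34 (adjusted p = 0.137) in WT, where it did not pass (edgeR).

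The other 7 genes of the large subunit group did not pass the test in either genotype after cisplatin and saline. Over all 8, the median log2 fold change was 0.85 in KO, between 0.11 for Rrp1b and 1.52 for Mrto4, and 0.84 in WT, between 0.27 for Gnl3 and 1.04 for Mrto4. Ebna1bp2, an early assembly factor, had 1.02 ± 0.28 (adjusted p = 0.0587) in KO. Rrs1, known in yeast to help load the small RNA of the large subunit, had 1.04 ± 0.48 (adjusted p = 0.271) in KO, and Nop16 had 0.97 ± 0.40 (adjusted p = 0.209) in KO (edgeR). Nop2, an RNA methyltransferase of the large subunit RNA, and Nip7 had changes of 0.33 and 0.53 in KO and 0.80 and 0.87 in WT on the log2 scale. The GTPase nucleostemin (Gnl3) had 0.73 ± 0.23 (adjusted p = 0.0929) in KO.

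The PeBoW complex of Pes1, Bop1 and Wdr12, which acts in maturation of the large subunit RNA, had log2 fold changes between 0.40 and 0.79 in KO and between 0.18 and 0.95 in WT, with 0 of 3 genes past the test. For the 4 small subunit factors the range was 0.11 to 0.68 in KO and 0.10 to 0.96 in WT, also with 0 of 4 past it. These are Wdr43 of the early processome, Bysl, the endonuclease Nob1 that makes the last cut of the small subunit RNA, and the late factor Tsr1. The smallest adjusted p among these 7 genes in edgeR was 0.29 in KO and 0.229 in WT. At an unadjusted p below 0.05 there were 0 in KO and 1 in WT, Bop1, and DESeq2 and limma-voom called none of the 7. Over all 20461 genes tested, 3711 in KO and 3606 in WT had an unadjusted p below 0.05.

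The number of genes called depended on the tool and on single samples. DESeq2 called 9 of the 32 in KO and 11 in WT, and limma-voom called 5 in KO and 2 in WT. The shares of all genes called by these tools, or with samples left out, are not given, here or below. A higher or lower count therefore need not mean a stronger or weaker result for the 32. In WT with edgeR, leaving out cisplatin saline sample 5 left 0 of the 32 genes called, leaving out sample 6 or any of naive samples 1, 2 and 3 left 1 each, and leaving out sample 4 gave 9. Without both samples 5 and 6, the arm was sample 4 alone, which was assumed to vary like the samples of the other groups. Then 0 were called, with log2 fold changes of 0.84 for Nop10 (adjusted p = 0.62), 0.79 for Npm1 (adjusted p = 0.699) and 0.48 for Nhp2 (adjusted p = 0.873). In KO, leaving out naive sample 1, naive sample 2 or cisplatin saline sample 5 left 2 each, and leaving out cisplatin saline sample 4 left 4. Ncl and Nop10 in KO kept their call under all 13 alternatives run.

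Other genes of the pathway, in lists drawn up by function and excluding the 32, were counted in the same way, beside the same 2.42% of all genes that rose in KO and 1.95% in WT. In KO cisplatin saline against KO naive, 2 of 44 further small subunit processome genes rose (Ltv1, log2 fold change 1.27 ± 0.26, adjusted p = 0.0121; Pno1, 1.57 ± 0.36, adjusted p = 0.0222, edgeR), and none fell. Of 50 further large subunit factors 1 rose, the RNA methyltransferase Ftsj3 (1.62 ± 0.38, adjusted p = 0.0255), of 12 genes of the nuclear exosome 1 rose, Exosc8 (0.91 ± 0.23, adjusted p = 0.0377), and of 11 snoRNP assembly genes 1 rose, the ATPase Ruvbl2 (1.41 ± 0.38, adjusted p = 0.0488). The count of large subunit factors was no higher than the share over all genes. In WT cisplatin saline against WT naive, Ruvbl2 also rose (1.77 ± 0.38, adjusted p = 0.0229), and no other gene of these 4 lists passed in edgeR. An unadjusted p below 0.05 was found in WT for 5 of 44 small subunit, 15 of 50 large subunit, 4 of 12 exosome and 3 of 11 snoRNP assembly genes. Over all 20461 genes tested it was found for 3606, and the small subunit count was no higher than that share. DESeq2 called 0, 4, 3 and 1 in the order of these lists.

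The list medians in KO were 0.46 for the small subunit processome, 0.40 for the large subunit factors, 0.36 for snoRNP assembly and 0.34 for the exosome, beside -0.04 over all genes tested. In WT they were 0.34, 0.36, 0.53 and 0.39 in the same order, beside -0.01. None of 12 further genes of the RNA polymerase I machinery passed in either genotype, with medians of 0.29 in KO and -0.08 in WT, and none of 10 Myc network partners did, with medians of -0.29 in KO and -0.19 in WT. None of 9 genes of the p53 and nucleolar stress response passed, with medians of -0.04 in KO and 0.47 in WT. At an unadjusted p below 0.05 there were 1 of the polymerase genes, 1 of the Myc partners and 3 of the stress genes in KO, and 2, 2 and 1 in WT. Over all 20461 genes tested there were 3711 in KO and 3606 in WT. DESeq2 called 0, 0 and 3 of these lists in KO and 2, 1 and 1 in WT, and limma-voom 0, 0 and 1 in KO and 0 of each in WT.

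Genes of nucleotide synthesis and of DNA replication, which supply and accompany growth, were also followed, again beside 2.42% of all genes that rose in KO and 1.95% in WT. Of 15 genes of purine and pyrimidine synthesis, 3 rose in KO, with Nme1 (2.44 ± 0.29, adjusted p = 0.000549), Pfas (1.33 ± 0.30, adjusted p = 0.0208) and Impdh2 (1.33 ± 0.35, adjusted p = 0.0414), and 4 rose in WT, led by Nme1 (2.37 ± 0.29, adjusted p = 0.00113) and Cad (2.25 ± 0.34, adjusted p = 0.00334, edgeR). Of 12 genes of replication and mitosis, 1 rose in KO, the helicase subunit Mcm2 (2.21 ± 0.59, adjusted p = 0.0473), and 7 rose in WT, led by Mcm3 (1.54 ± 0.24, adjusted p = 0.0042). When this change was compared between genotypes, 0 of the 12 passed in edgeR. An unadjusted p below 0.05 was found there for 3 of the 12, beside 1561 of all 20461 genes tested. Top2a, a mark of dividing cells, stood at 2.09 to 8.35 CPM in KO cisplatin saline and 3.63 to 15.7 in KO naive, and at 15.3 to 22.9 CPM in WT cisplatin saline and 0.202 to 1.59 in WT naive. Mki67, another such mark, stood at 0.867 to 8.71 CPM in KO cisplatin saline and 4.32 to 18.5 in KO naive. In WT it stood at 3.36 to 13.2 CPM after cisplatin with saline and 2.21 to 5.66 in naive. Its groups overlapped, and it did not pass in KO (adjusted p = 0.611) or WT (adjusted p = 0.71, edgeR). Whether dividing cells contribute to the levels of the 32 genes was not tested.

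Cisplatin with AIBP was set against naive in the same way. In the samples labelled KO cisplatin AIBP against KO naive, 6 of the 32 genes rose, against 1.81% of all genes, and none fell: Ncl, Nop10, Npm1, Ebna1bp2, Nhp2 and Nop58. The naive samples are shared with the saline comparison, so the 2 sets of differences are not independent. Log2 fold changes were 1.46 ± 0.24 for Ncl (adjusted p = 0.00627), 1.29 ± 0.23 for Nop10 (adjusted p = 0.00842) and 1.36 ± 0.27 for Npm1 (adjusted p = 0.0156, edgeR). The median over the 32 was 0.80, beside -0.07 over all genes, and 16 of the 32 had every sample above every naive sample, against 10.1% of all genes.

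Ebna1bp2 (chromosome 4, 118620799 to 118627776) stood at 66.6, 163 and 115 CPM in the samples labelled KO cisplatin AIBP, 93.8, 92.2 and 82.5 in KO after cisplatin with saline and 39.8, 40.3 and 52.6 in KO naive, and at 74.4 and 72.8 CPM in WT cisplatin AIBP, 56.7, 109 and 84.8 in WT after cisplatin with saline and 61.6, 69.4 and 54.2 in WT naive. Sample 8 was the highest of all. Nop58 (chromosome 1, 59684971 to 59719044) stood at 88.1, 140 and 162 CPM in the samples labelled KO cisplatin AIBP, 80.8, 101 and 128 in KO after cisplatin with saline and 34.2, 45.4 and 63.8 in KO naive, and at 109 and 99.9 CPM in WT cisplatin AIBP, 56.8, 155 and 136 in WT after cisplatin with saline and 51.8, 69.8 and 51 in WT naive. Both genes were above every KO naive sample in every KO cisplatin sample. Against KO naive, the samples labelled KO cisplatin AIBP gave 1.38 ± 0.29 (adjusted p = 0.0194) for Ebna1bp2 and 1.44 ± 0.35 (adjusted p = 0.0401) for Nop58 (edgeR).

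Sample 7 was the lowest of the 3 samples labelled KO cisplatin AIBP for 25 of the 32 genes, and sample 8 the highest for 18. Without sample 8 only 1 of the 32 genes was called against KO naive. Without sample 9, KO naive sample 1 or KO naive sample 2 there were 2 each, and without sample 7 there were 8. Shares of all genes called in these fits are not given, so these shifts need not be particular to the 32. The monocyte sum was 17.5, 169 and 23.8 CPM in samples 7, 8 and 9, against 2.44 to 9.77 CPM in KO naive. The 32 genes summed to 2504, 4354 and 4032 CPM in samples 7, 8 and 9. The part of monocytes in these differences was not tested.

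In WT cisplatin AIBP against WT naive, 0 of the 32 genes passed edgeR's test, against 1.06% of all genes that rose. An unadjusted p below 0.05 was found for 15 of the 32, beside 2933 of all 20461 genes tested, and DESeq2 called 7 of the 32. The nearest were 1.08 ± 0.25 (adjusted p = 0.0502) for Nop10 and 1.23 ± 0.29 (adjusted p = 0.056) for Npm1. The median log2 fold change was 0.73, beside -0.07 over all genes, 29 of 32 were above 0, and 21 of the 32 had both samples above all naive samples, against 17% of all genes. Ubtf had both below. With 2 samples in this group the median SE over the 32 genes was 0.36, against 0.32 in WT cisplatin saline over WT naive.

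**Figure D5:**
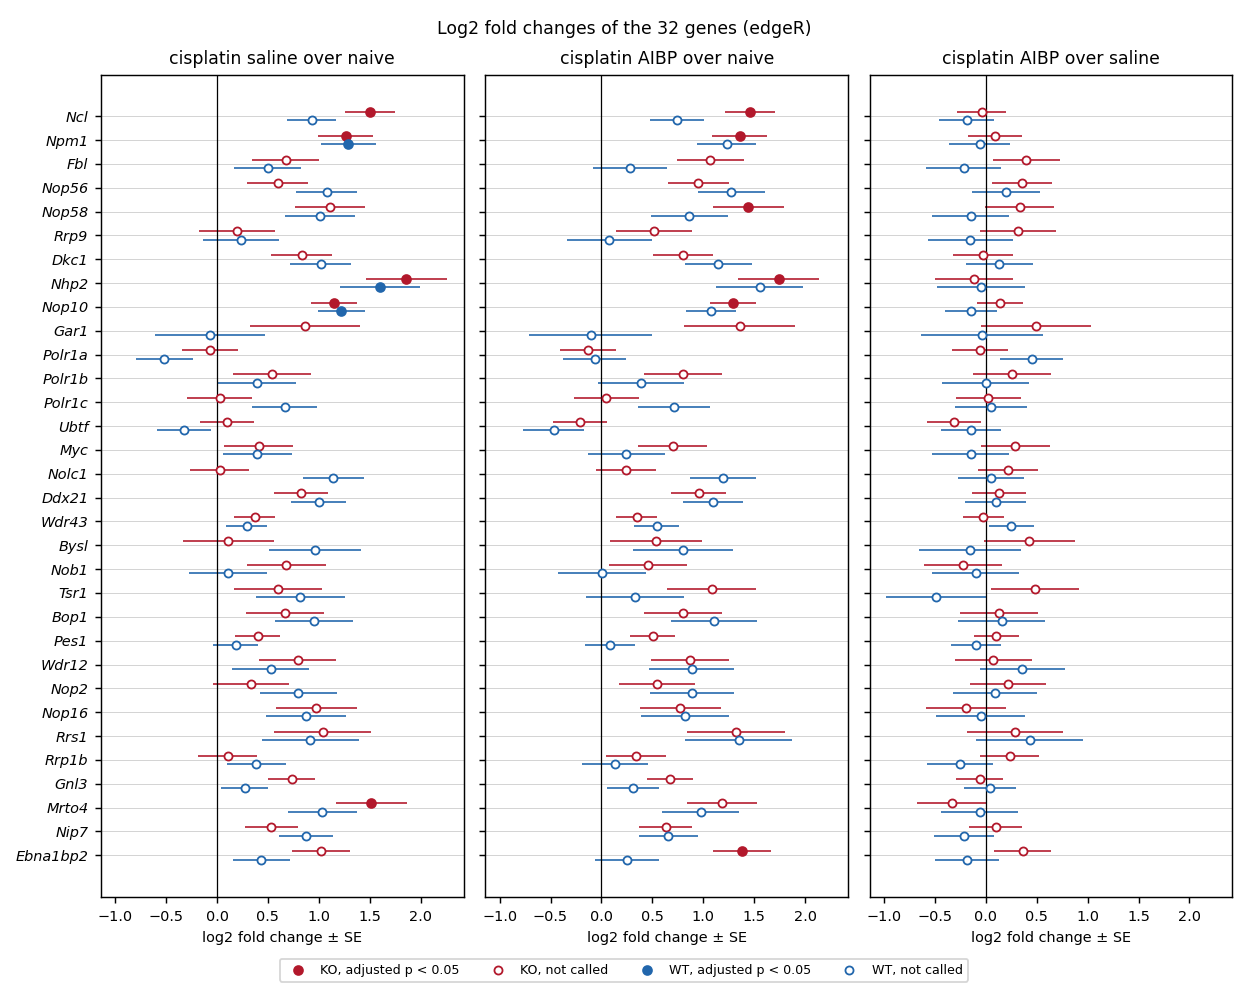
Log2 fold change ± SE (x) of each of the 32 genes (y) for cisplatin saline over naive (left), cisplatin AIBP over naive (middle) and cisplatin AIBP over saline (right), in KO (red) and WT (blue), with filled points at an adjusted p below 0.05. In the left and middle panels most points lie right of 0, with medians of 0.67 to 0.81, and in the right panel they lie on both sides of 0, with medians of 0.13 in KO and -0.06 in WT.

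AIBP and saline after cisplatin gave no called difference in the 32 genes. In the samples labelled KO cisplatin AIBP against KO cisplatin saline, 0 of 32 passed edgeR's test (0.00977% of all genes were called), 0 had an unadjusted p below 0.05, and DESeq2 and limma-voom called 0. The smallest unadjusted p-values belonged to Ebna1bp2 (log2 fold change 0.36 ± 0.28, adjusted p = 0.86) and Fbl (0.40 ± 0.33, adjusted p = 0.879), neither of which passed. In WT cisplatin AIBP against WT cisplatin saline, again 0 of 32 passed (0% of all genes were called), 0 had an unadjusted p below 0.05, and DESeq2 and limma-voom called 0. The smallest p-values belonged to Polr1a (0.45 ± 0.31, adjusted p = 0.996) and Wdr43 (0.25 ± 0.22, adjusted p = 1).

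The log2 fold changes of AIBP over saline ranged from -0.33 for Mrto4 to 0.49 for Gar1 in KO, with a median SE of 0.32, and from -0.49 for Tsr1 to 0.45 for Polr1a in WT, with a median SE of 0.36. Changes within these limits could not be resolved with 2 or 3 samples per group. Ncl, as an example, differed by -0.04 ± 0.24 in KO and -0.19 ± 0.27 in WT.

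KO and WT were compared under each treatment, and none of the 32 genes passed. In KO naive against WT naive 0 of 32 passed edgeR's test (0.00489% of all genes were called), and DESeq2 and limma-voom called 0. An unadjusted p below 0.05 was found for 1220 of all 20461 genes tested, and for a similar share of the 32, namely 2 genes. These were Nolc1, at 40.4, 54.2 and 80.5 CPM in KO naive and 31.3, 36.7 and 37.1 CPM in WT naive (0.74 ± 0.29, adjusted p = 0.789), and Ddx21, at 36.9, 32.6 and 33.5 CPM in KO naive and 29.8, 15.2 and 23 CPM in WT naive (0.60 ± 0.27, adjusted p = 0.789). For both genes the naive groups did not overlap, and how many of all genes show this was not counted. In KO cisplatin saline against WT cisplatin saline 0 of 32 passed (0.044% of all genes were called), and 0 were called by DESeq2 or limma-voom. At an unadjusted p below 0.05 there was 1 of the 32, beside 1837 of all 20461 genes tested. The nearest were Gnl3 (0.50 ± 0.23, adjusted p = 0.547) and Ncl (0.51 ± 0.24, adjusted p = 0.553).

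In the samples labelled KO cisplatin AIBP against WT cisplatin AIBP, 0 of 32 passed (0% of all genes were called), and DESeq2 and limma-voom called 0. An unadjusted p below 0.05 was found for 1299 of all 20461 genes tested and for 2 of the 32. The latter were Pes1 (0.64 ± 0.25, adjusted p = 0.732) and Ncl (0.65 ± 0.27, adjusted p = 0.732, edgeR). Over the 32 genes the median log2 difference of KO over WT was 0.03 in naive samples, 0.06 after cisplatin and saline, and 0.16 after cisplatin and AIBP.

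The change from naive to cisplatin saline was also compared between genotypes by an interaction term. In edgeR, 0 of 32 genes passed (0% of all genes were called). At an unadjusted p below 0.05 there were 1561 of all 20461 genes tested and 1 of the 32. The latter was Nolc1, whose log2 fold change in KO minus that in WT was -1.12 ± 0.42 (adjusted p = 0.607, edgeR). Nolc1 stood at 59.8, 56 and 62.5 CPM in KO cisplatin saline and 61.1, 94.5 and 76.3 CPM in WT cisplatin saline, beside the naive values above, so its KO naive samples lay around its KO cisplatin saline samples. Ncl came next, with a difference of the same kind at 0.57 ± 0.34 (adjusted p = 0.75). For the effect of AIBP over saline, the interaction again gave 0 of 32 (0% of all genes were called), 0 with an unadjusted p below 0.05, and the nearest genes were Tsr1 (0.97 ± 0.66, adjusted p = 0.914) and Ebna1bp2 (0.54 ± 0.42, adjusted p = 0.948). DESeq2 and limma-voom called 0 of the 32 in both interactions.

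Technical spread entered these values. The median SD of log2 CPM over the 32 genes was 0.54 between technical replicates of a sample, each a single library, and 0.41 between the summed samples within a group. Npm1, Ncl and Nhp2 had the smallest SD between technical replicates, 0.19, 0.27 and 0.29, and Polr1b, Tsr1 and Gar1 the largest, 1.23, 1.13 and 1.08.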

How the data were processed

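Per the labels' protocols, sorted microglia were lysed, oligo(dT) primed the copying of polyadenylated RNA, the copies were amplified by PCR, and Nextera XT libraries were sequenced as read pairs of 50 bases. STAR 2.6.0a and the build GRCm38 are named in the submitters' processing notes; the counting tool and strand setting are not given in the sources used here. Raw counts per gene for 102 runs were deposited by the authors and used for every test. The second deposited table holds signal: per the values, the authors' raw counts divided by 1 factor per run (0.437 to 1.62, the same for all genes of a run within a relative tolerance of 1e-09). It served to find the 32 genes by symbol.

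Counts of the 6 runs of a numbered sample (3 technical replicates on 2 lanes) were summed, giving 17 samples of 45.1 to 76.6 M counts. edgeR 4.0.16 in R 4.3.3 was used with TMM scaling, filterByExpr (20461 genes) and 1 mean per group over all 17 samples (11 residual degrees of freedom). The quasi-likelihood F test was run for 11 contrasts (2 of them interactions), with Benjamini-Hochberg adjustment at 0.05 over all genes tested. Tests were two-sided. Errors of log2 fold changes are SE, derived from the test as the absolute log2 fold change over the square root of F. The script was tested on simulated data. Exon lengths, pseudogenes (at least 95% identity over 200 bases) and overlaps came from GENCODE M21, and promoters from RefSeq on GRCm38.p6.

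The 32 genes, the lists of pathway genes and markers and the tests were chosen with earlier results of these data known. Named were all 32 genes, with values in every sample for Myc, Ubtf and those past the threshold, the 2 smallest p where none passed, and up to 3 called genes per list. Alternatives were other scaling, low-count filters, 2-group fits, limma-voom (limma 3.58.1), DESeq2 1.42.0, single samples left out, WT cisplatin saline samples 5 and 6 left out, and replicate blocks. Sample numbers did not pair the genotypes (correlation of deviations -0.08 to 0.03).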

Additional observations from a re-analysis of the deposited data

How the results depend on the processing

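Counts of the 32 genes called are given for KO cisplatin saline, the samples labelled KO cisplatin AIBP, WT cisplatin saline and WT cisplatin AIBP, each against naive, which were 5, 6, 3 and 0. With DESeq2 size factors in edgeR they were 5, 6, 5 and 1, with no filter on low counts 6, 6, 6 and 3, and with at least 10 CPM in 2 samples, where fewer genes are tested, 10, 10, 11 and 7. With only the groups compared in the fit they were 6, 0, 0 and 5, with limma-voom 5, 5, 2 and 0, and with DESeq2 9, 11, 11 and 7. The causes of these differences were not tested. The share of all genes called under each alternative is not given, so a higher count need not mean a stronger result for the 32. Leaving out single samples gave 2 to 5, 1 to 8, 0 to 9 and 0 to 0, and leaving out WT cisplatin saline samples 5 and 6, which leaves sample 4 alone with its spread taken from the other groups, gave 0 in WT cisplatin saline. With single libraries as units in limma-voom and the technical replicate number as a term of the fit, they were 11, 13, 11 and 9. That fit took libraries of the same sample as correlated, but only at 0.067, so they counted almost as separate samples. With the sample number as a replicate block, which cannot be fitted within a genotype, 0 of the 32 passed in the 3 comparisons of KO with WT and in both interactions, as without the block. In AIBP over saline, KO over WT and the interactions, 0 of the 32 passed under every alternative run. None of the 14 called log2 fold changes turned its direction under any alternative. With 2 or 3 samples per group, the median SE of 0.32 to 0.37 on the log2 scale between groups, and of 0.46 and 0.49 in the interactions, limits which changes of the 32 genes can be called.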
